A study of Mus musculus with 73 samples.

Results

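HNF6 binding to chromatin was compared between mouse livers that lost Foxa1 and Foxa2 in adulthood and control livers. The members were chosen by their labels, as every HNF6-bound library from adult nulls or controls, and numbered 5 of the 73 samples of the series. They were 2 adult null libraries and 3 control libraries. Each came with 1 list of peaks, the stretches of the genome where sequenced fragments pulled down by an HNF6 antibody piled up over an input library of unselected chromatin. The series as a whole followed DNA methylation and transcription factor binding in liver after loss of the FoxA factors.

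All 5 livers carried Foxa1L/L;Foxa2L/L, alleles of both genes that the Cre recombinase can delete. The adult nulls received, at 8 weeks of age, an AAV8 virus carrying Cre under the Tbg promoter, and were used 1 month later. Tbg acts in hepatocytes, so bile duct, endothelial and immune cells of the same liver keep both genes. The controls were 8 weeks old and carried no Cre; the labels name no virus for them, so virus, age and genotype differed together. Loss of FoxA protein and the identity of the tissue could not be checked here, because a peak list holds no expression value. Bulk liver chromatin also does not tell fewer binding cells from less binding per cell.

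HNF6, the product of Onecut1, is a cut-homeodomain transcription factor that acts in hepatocytes and in developing bile ducts and binds at enhancers and promoters of liver genes. FoxA1 and FoxA2 are forkhead proteins that can bind their sites in compacted chromatin, and at many liver enhancers their sites lie beside those of HNF6 and other liver factors. A comparison of HNF6 peaks before and after FoxA loss therefore asks whether HNF6 keeps its places on liver chromatin without FoxA1 and FoxA2.

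The lists differed in make and in depth. Adult null lists 1 and 2 held 4028 and 5678 peaks, and control lists 1, 2 and 3 held 5767, 4649 and 1770 peaks. After removal of duplicate tags, which were 0% of those entering the calls in the adult nulls (already removed before) and 53%, 58% and 38% in the controls, HNF6 tags numbered 25266481 and 21222832 in the adult nulls, against 27470593, 20916488 and 30469386 in the controls. Adult null peaks had been called with MACS 1.4.3 and control peaks with MACS 2.1.1, so caller and genotype cannot be told apart in any comparison of these lists. Median peak widths were 307 and 320 bp in the adult nulls, against 150, 131 and 84 bp in the controls. The caller's false discovery rate started at 17.9% in adult null 1, where no peak reached 5%, while 1504 peaks of adult null 2 did. To set unlike lists side by side, each peak was reduced to a 200 bp window on its summit, the base with the most tags, and the 1770 windows of smallest p-value were taken from each list. Those best-ranked windows are called the top list.

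Control 3 stood apart. Its list was the shortest although it had the most tags after duplicate removal, and 45.5% of its peaks lay on chromosomes X and Y, against 16.2% and 8.51% in the adult nulls and 13.9% and 16.9% in controls 1 and 2. Most of its X peaks, 541 of 679, fell in a single stretch of that chromosome, which also held 64.8% to 69.4% of the X peaks of the other 4 lists. The median fold enrichment over input, as the authors' caller gave it, was 5.90 in control 3. The main results below are therefore also given without control 3 or for autosomes alone, where the shortest list set the top list to 965 windows.

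Most of the best HNF6 windows of adult null livers were also found in controls 1 and 2. Of the top 1770 windows, adult null 1 shared 66.6%, 64.4% and 45.4% with controls 1, 2 and 3. Adult null 2 shared 70.8%, 66.7% and 40.6% with them. The controls shared 72.0% (1 with 2), 42.2% (1 with 3) and 42.9% (2 with 3) among themselves, and the adult nulls shared 73.6% with each other. Both adult nulls thus had more windows in common with controls 1 and 2 than either of those controls had with control 3.

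The mean share was 59.1% over the 6 adult null and control pairs, against 52.4% over the 3 control pairs. The difference of 6.75 percentage points was not separable from the spread between libraries (two-sided exact permutation test over 5 libraries, p = 1, where the smallest possible p was 0.2). Without control 3 the direction turned, to 67.2% over the 4 adult null and control pairs and 72.0% for the 1 remaining control pair, a difference of -4.88 points (exact permutation p = 0.667, smallest possible 0.333). On autosomes the means were 62.5% and 63.0%, a difference of -0.458 points (exact permutation p = 1), and -5.30 points without control 3. Nothing says that the samples of a group came from separate animals, and these p-values measure only the spread between these libraries.

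**Figure D1:**
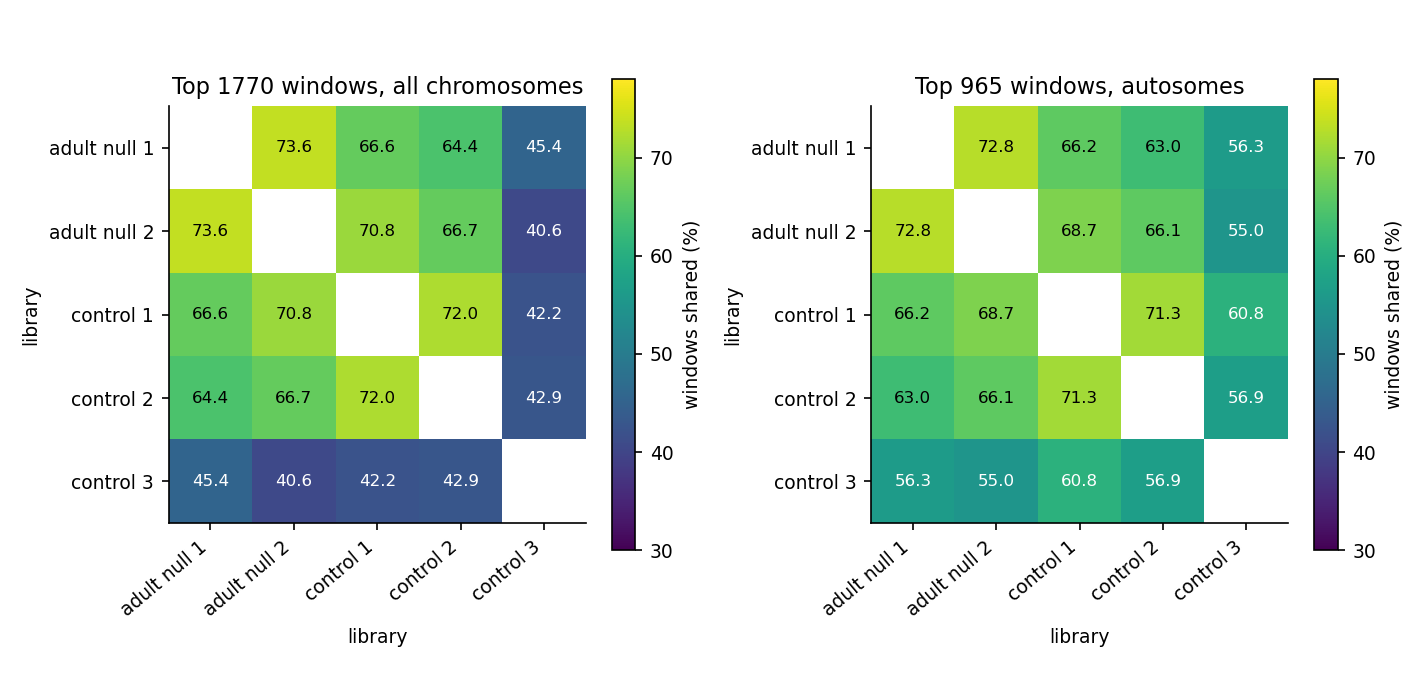
Percent of top windows shared by each pair of libraries, with adult nulls before controls on both axes, for all chromosomes (left) and autosomes (right); colour and printed value give the share. The pair of adult nulls shares 73.6% and controls 1 and 2 share 72.0% on all chromosomes, while every pair with control 3 lies between 40.6% and 45.4%.

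Within autosomes a small gap between groups was visible once control 3 was set aside. The adult nulls shared 72.8% of 965 windows with each other and controls 1 and 2 shared 71.3%, while the 4 pairs of an adult null with control 1 or 2 shared 66.2%, 63.0%, 68.7% and 66.1%. All 4 mixed pairs lay below both pairs within a group. With the 100 best windows only, the mixed pairs shared 46% to 60%, the adult nulls 56% and controls 1 and 2 64%, so that the ranges overlapped. At 965 windows every pair with control 3 lay below all the others, at 55.0% to 60.8%.

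**Figure D2:**
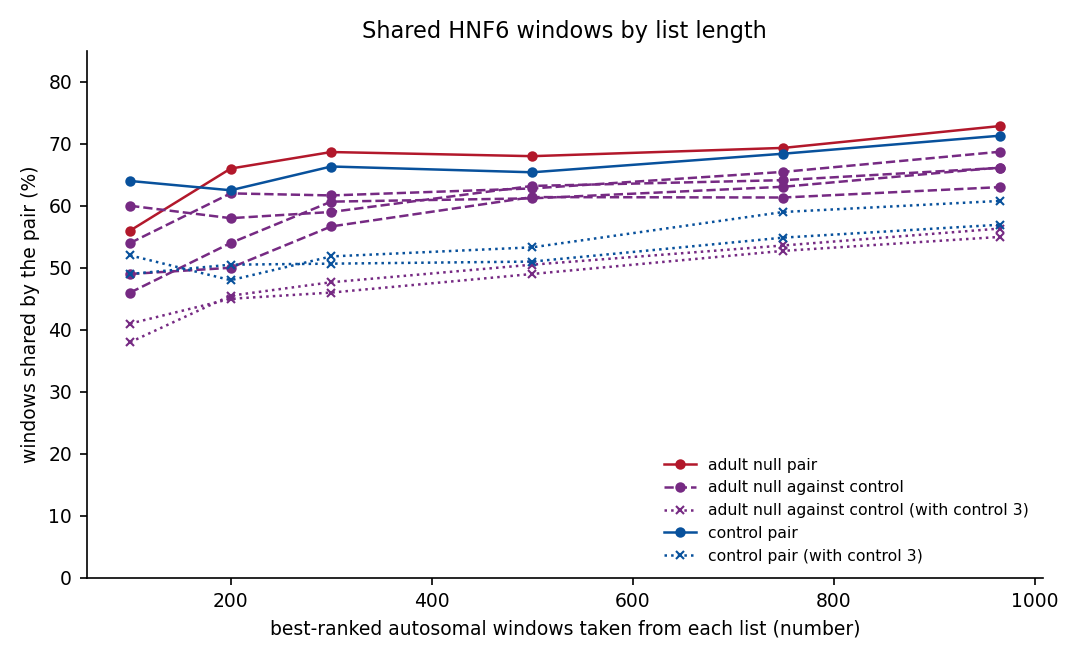
Percent of autosomal windows shared by a pair (vertical axis) when the best 100 to 965 windows are taken from each list (horizontal axis); each line is 1 pair of libraries, and dotted lines with crosses are pairs with control 3. At 965 windows the pair of adult nulls (72.8%) and controls 1 and 2 (71.3%) lie above the mixed pairs, the highest of which is at 68.7%.

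The order of the peaks was also alike. Over regions shared by a pair, Spearman's rank correlation of p-value ranks was 0.65 between the adult nulls (1302 regions). It was 0.53 to 0.59 between an adult null and control 1 or 2 (1140 to 1254 regions), and 0.61 between controls 1 and 2 (1275 regions). With control 3 it was 0.28 and 0.31 for the adult nulls and 0.39 and 0.42 for the other controls. On autosomes it was 0.66 between the adult nulls, 0.49 to 0.55 between an adult null and control 1 or 2, and 0.61 between controls 1 and 2, while with control 3 it was 0.36 and 0.38 for the adult nulls and 0.45 and 0.51 for the other controls. These are descriptions across regions, which are not independent of each other and share the depth of their library.

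Summits lay closest together in controls 1 and 2. Of the 965 autosomal windows, 37.6% had a summit within 24 bp of one in the other adult null. Between adult null 1 and controls 1 and 2 the share was 38.7% and 33.1%, and for adult null 2 it was 48.4% and 44.1%. Between controls 1 and 2 it was 63.9%. With control 3 it was 28.0% and 29.6% for the adult nulls and 40.7% and 39.0% for controls 1 and 2, so 2 of the 3 control pairs lay below both pairs of adult null 2 with controls 1 and 2. The modelled fragment length was 53 and 66 bp in the adult nulls and 101, 87 and 53 bp in the controls, and its part in this result was not tested.

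Joined where they overlapped, the 5 top lists gave 3642 regions. Of these, 557 (15.3%; 95% Wilson interval 14.2 to 16.5) were held by all 5 top lists, and 907 by both adult nulls and controls 1 and 2. Intervals here cover counting error only. Both adult null top lists held 1303 regions, all 3 control top lists held 667, and controls 1 and 2 held 1276 in common. Regions held by the control 3 top list alone numbered 733, of which 582 lay on X or Y. The 557 regions common to all lists included 4 on X or Y.

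The 10 regions of best mean control rank were then read in the adult nulls. They were chosen for their control ranks, which are given as a description, and ranks come from lists of unequal length. The first lay on chromosome 3, 118194851 to 118195093 (mm9), beside a FoxA site. It ranked 10 and 2 in the adult nulls, against 1, 2 and 1 in controls 1, 2 and 3. Its fold enrichment, as the authors' callers gave it and therefore comparable only within a list, was 83.8 and 78.8 in the adult nulls and 53.3, 51.2 and 21.5 in the controls. Adult null 1 gave it its lowest place, and all 5 libraries had it within their best 10.

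The other 9 regions of best mean control rank followed, and 8 of these kept high places in the adult nulls. The region on chromosome 9, 74504338 to 74504562, ranked 15 and 6 in the adult nulls and 14, 6 and 8 in the controls. The region on chromosome 10, 120922337 to 120922706, ranked 6 and 13 in the adult nulls and 23, 1 and 34 in the controls. The region on chromosome 7, 46594875 to 46595091, ranked 24 and 3 in the adult nulls and 4, 19 and 44 in the controls. For these 3 the ranks of the groups overlapped. Regions on chromosome 19 (34831441 to 34831669), chromosome 16 (24078257 to 24078467), chromosome 11 (98452071 to 98452290), chromosome 17 (47609977 to 47610208) and chromosome 13 (115255662 to 115255920) had adult null ranks between 11 and 67.

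One of the 10 departed from the others. The region on chromosome 10, 86308172 to 86308482, away from any listed FoxA site, ranked 367 and 1653 in the adult nulls, against 13, 3 and 6 in the controls. Its fold enrichment was 24.5 and 12.1 in the adult nulls, where the other 9 of the 10 had 38.8 to 83.8 in adult null 1 and 28.7 to 78.8 in adult null 2. In the controls it was 33.4, 35.0 and 13.4. The ranks of the groups did not overlap, and adult null 2 was the lowest. All 5 lists nevertheless held a peak there, with summits 56 and 54 bp from the middle of the region in the adult nulls and 5, 55 and 16 bp in the controls. No annotation of the build was used, so the genes near these regions are not named.

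**Figure D3:**
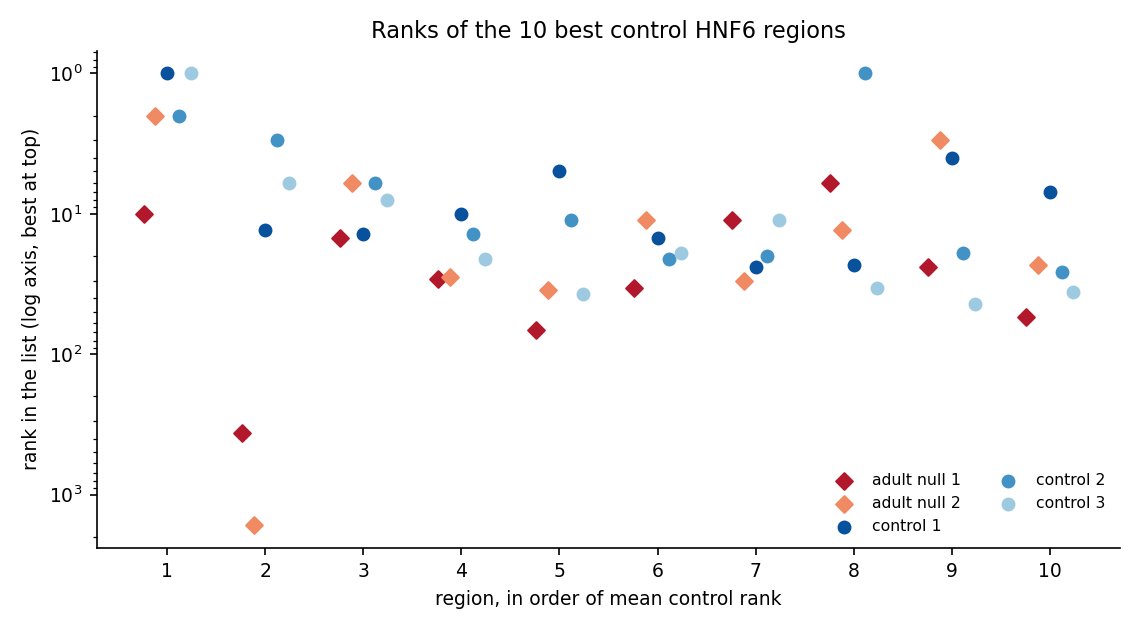
Rank by p-value in each list (vertical log axis, best rank at the top) of the 10 regions with the best mean control rank, in that order along the horizontal axis; diamonds are adult nulls and circles controls. In 9 regions every library ranks between 1 and 67, while in region 2 the adult nulls rank 367 and 1653 and the controls 3 to 13.

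Regions found in 1 genotype and missing from the full lists of the other were rare. Both adult null top lists held 5 regions (0.137% of 3642) that no full control list held, and all 3 control top lists held 10 (0.275%) that neither full adult null list held. Setting control 3 aside gave 6 regions for the adult nulls and 20 for controls 1 and 2. Both counts moved with the libraries used, and leaving 1 out also loosened the rule, since fewer lists had to hold or lack a region. Without adult null 1 or 2, adult null regions were drawn from 1770 or 1769 regions of 1 list, against 1303 of both. The counts were 29 and 20 without adult null 1, 57 and 19 without adult null 2, 36 and 26 without control 1, and 11 and 14 without control 2. On autosomes with 965 windows they were 0 and 2.

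The 2 small sets differed in where they lay. None of the 5 adult null regions overlapped a listed FoxA site, against 43.6% of the 1303 regions of both adult null top lists. Of the 10 control regions 8 did, against 51.4% of the 667 regions of all 3 control top lists, and of the 20 regions without control 3 it was 14, against 47.7% of 1276. These counts were too few for a test across libraries and were chosen by the lists compared. Adult null ranks of the 5 regions ran from 784 to 1720, with medians of 1059 and 1609. Control ranks of the 10 ran from 353 to 1600, with medians of 1047, 933 and 1294.

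The best-placed of the 10 control regions lay on chromosome 6, 42204487 to 42204725, away from FoxA sites, with ranks 394, 562 and 1134 in the controls and the nearest adult null summits 2609 and 2638 bp away. The next lay on chromosome 7, 78688984 to 78689194, at a FoxA site, with ranks 1123, 353 and 1003 in the controls and the nearest adult null summit 414010 bp away. At 2 of the 10, on chromosome 8 (95757527 to 95757770) and chromosome 17 (86902696 to 86902917), wider adult null peaks reached over the region with their summits 287 to 382 bp away. The 5 adult null regions were led by chromosome 4, 60230962 to 60231167, with ranks 784 and 1625 in the adult nulls and the nearest summits of controls 1 and 2 at 4528 and 4507 bp. Next came chromosome 17, 73638950 to 73639183, with ranks 844 and 1609 in the adult nulls and the nearest control summit 445074 bp away.

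Regions shared by 2 controls were then looked for in the libraries left over, so that an adult null and a control were read on the same regions. Of 1275 regions of controls 1 and 2, the adult null top lists held 77.9% (Wilson 75.5 to 80.1) and 80.5% (78.3 to 82.6), against 52.2% (49.5 to 55.0) in control 3. Of 746 regions of controls 1 and 3, they held 85.9% and 85.4%, against 89.4% in control 2. Of 755 regions of controls 2 and 3, they held 83.3% and 81.3%, against 88.3% in control 1. The adult nulls therefore stood above control 3 and below controls 1 and 2. On autosomes the 3 sets gave 77.2% and 79.4% against 69.0%, 76.6% and 77.8% against 81.1%, and 78.3% and 79.1% against 86.5%.

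Most of what the adult null top lists missed was present lower in their lists. Of the 1276 regions of controls 1 and 2, adult null 1 held 16.6% below its top list and lacked 5.49% altogether, and adult null 2 held 16.5% below its top list and lacked 2.98%. In the other direction, of the 1303 regions of both adult nulls, controls 1 and 2 lacked 1.23% and 3.22%. These are full lists of unequal length, 4028 and 5678 peaks in the adult nulls and 5767 and 4649 in controls 1 and 2. The share lacking was larger the shorter the list, so the 2 directions are not comparable. The missing ones were weaker to begin with: regions that adult null 1 held in its top list had a median control 1 rank of 547.5, and those it lacked a median of 1235.

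In the adult nulls, whether control regions at FoxA sites were found clearly more often than those away from them depended on the pair of controls. The control left out held more of those at FoxA sites for each pair on all chromosomes. Of the 606 regions of controls 1 and 2 at a listed FoxA site, adult null 1 held 78.5% and adult null 2 held 81.2%. Of the 669 away from these sites they held 77.3% and 80%. The 95% Wilson intervals of the at and away shares overlapped in both adult nulls (75.1 to 81.6 and 74.0 to 80.3 in adult null 1). Control 3 held 56.4% of the same regions at FoxA sites (52.5 to 60.3) and 48.4% of those away (44.7 to 52.2), without overlap. For the regions of controls 2 and 3 the intervals did not overlap: adult null 1 held 87.6% of those at FoxA sites (83.7 to 90.6) and 79.6% of those away (75.3 to 83.2), and adult null 2 held 86.2% (82.2 to 89.4) and 77.1% (72.7 to 80.9). Control 1 held 96.0% and 81.5% of the same regions. On autosomes this order was not seen in the adult nulls, with 76.2% at and 80.5% away in adult null 1, and 78.7% at and 79.4% away in adult null 2. Control 1 kept it there, with 88.4% at (84.1 to 91.7) and 84.6% away (79.8 to 88.4), though these intervals overlapped. For controls 1 and 3 on all chromosomes the shares at and away were 86.6% and 85.2% in adult null 1 and 86.4% and 84.4% in adult null 2. In control 2 they were 91.2% and 87.6%, and 80.3% and 81.9% on autosomes.

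The share fell with rank. Among 688 autosomal regions split into 3 equal groups by mean control rank, adult null 1 held 95.5%, 74.2% and 60.9% of those at FoxA sites from the best to the lowest group, and 93.3%, 77.1% and 62.2% of those away from them. Adult null 2 held 95.5%, 84.2% and 60.9% at FoxA sites and 92.5%, 79.8% and 63.0% away from them. For control 3 the shares were 95.5%, 70.0% and 50.9% at FoxA sites and 85.8%, 61.5% and 50.4% away from them.

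**Figure D4:**
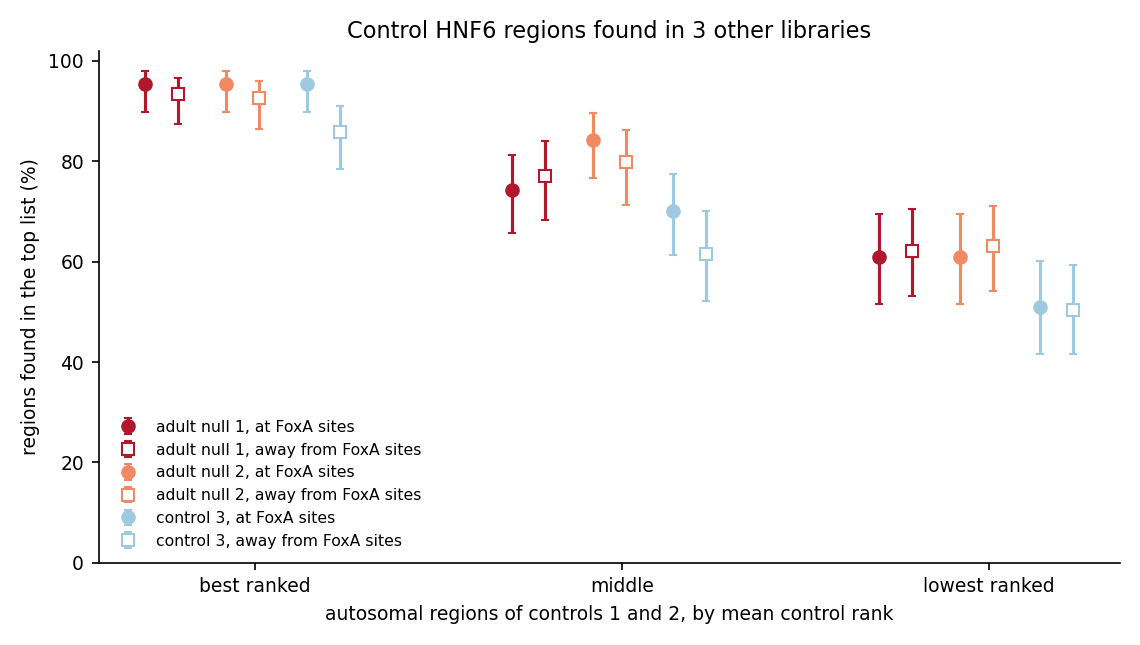
Percent of autosomal regions of controls 1 and 2 found in the top list of each adult null and of control 3 (vertical axis), for 3 groups of regions by mean control rank (horizontal axis); filled circles are regions at FoxA sites, open squares regions away from them, and bars are 95% Wilson intervals. The share falls with rank in every library, from 95.5% to 60.9% in both adult nulls at FoxA sites, and at and away intervals overlap in each group.

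The share of HNF6 windows at FoxA sites was slightly lower in the adult nulls than in controls 1 and 2. A window was counted when it overlapped 1 of the 33302 FoxA sites of 400 bp given with the methylation data, none of which lies on X or Y. The share was 38.5% (Wilson 36.2 to 40.8) and 41.4% (39.1 to 43.7) in the adult nulls, against 45.3% (42.9 to 47.6), 43.8% (41.5 to 46.1) and 23.1% (21.2 to 25.1) in the controls. The group means were 39.9% ± 2.04 in the adult nulls (SD, n = 2) and 37.4% ± 12.4 in the controls (SD, n = 3; two-sided exact permutation p = 1, smallest possible 0.2). Without control 3 the direction turned, to 44.5% ± 1.04 in the controls (n = 2) and -4.60 points between the groups (p = 0.333 in an exact permutation test, its smallest possible value).

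On autosomes the shares were 44.7% and 44.4% in the adult nulls, against 49.3%, 47.3% and 42.4% in the controls. The adult nulls lay between control 2 and control 3, and the means differed by -1.81 points (exact permutation p = 0.6) or, without control 3, by -3.78 points (p = 0.333, the smallest possible in an exact permutation test of 2 against 2). Within a list the share showed no steady order with rank. Among the best 200 autosomal windows it was 45.0% and 45.5% in the adult nulls and 52.0%, 42.5% and 39.0% in the controls. Where a window met a FoxA site, the median distance from the HNF6 summit to the middle of the site was 46 and 47 bp in the adult nulls and 39, 41 and 40 bp in the controls. The groups did not overlap in this distance, which also depends on how each caller placed summits.

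Developmental nulls were 8-week-old mice whose FoxA genes were removed before adulthood through the Alfp Cre transgene. Set beside their lists, the adult null lists shared more windows with the controls. With 650 autosomal windows from each of 7 lists, the adult nulls shared 58.6% and 60.4% of their windows with the 3 controls on average, and the 2 developmental nulls 39.1% and 46.8%. The means were 59.5% ± 1.32 in the adult nulls and 42.9% ± 5.46 in the developmental nulls (SD, n = 2 each), 16.6 points apart (p = 0.333 in a two-sided exact permutation test of 2 against 2, its smallest possible value). The adult nulls shared 70.3% with each other, and the developmental nulls 42.6%, about as much as they shared with the controls. The developmental null lists came from the same MACS version as the controls, and held 56.0% and 45.1% of their peaks on X and Y. They held 3119 and 1185 peaks, with median fold enrichments of 6.32 and 5.98, near the 5.90 of control 3. The 650 windows were every autosomal peak of developmental null 2, but only the best of 3377 and 5195 in the adult nulls. The part of list length and strength in this result was not tested.

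Methylation gave a readout that did not enter the choice of windows. Whole-genome bisulfite sequencing (WGBS) reads methylated cytosines. The deposited tables give 1 level per FoxA site for hepatocytes of 2 adult nulls and 2 controls of the same genotypes. These adult nulls also received the virus at 8 weeks of age and were used 1 month later. The WGBS controls were 8 weeks old with no virus named, so virus, age and genotype differed together here as well. Cytosine methylation is usually low where enhancers are active and bound. Of 28654 sites measured in all 4 libraries, 393 (1.37%) lay under a top window of all 5 HNF6 lists and 25645 (89.5%) under no peak of any list. The tables hold no read depth, so the precision of a single level is unknown, and chromosomes 1 and 2 are not in the adult null table used here.

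FoxA sites under HNF6 were low in methylation, in the adult nulls as in the controls. At the 393 sites of all 5 lists the mean level was 7.26% and 7.89% in the adult nulls, against 9.33% and 11.6% in the controls. At the 25645 sites with no HNF6 peak it was 21.0% and 21.4% in the adult nulls, against 21.6% and 23.3% in the controls. Sites under 1 to 4 top lists (9.39% ± 0.236 in the adult nulls and 12.0% ± 1.73 in the controls; SD, n = 2 each) and sites under weaker peaks only (12.1% ± 0.314 and 14.6% ± 1.68) lay between. Both adult nulls were below both controls in all 4 classes.

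The difference was -2.90 points at the 393 sites, -2.57 under 1 to 4 top lists, -2.49 under weaker peaks and -1.28 at sites without a peak (two-sided exact permutation p = 0.333 for each, the smallest possible with 2 against 2). The gap between sites of all 5 lists and sites without a peak was -13.7 and -13.5 points in the adult nulls, against -12.2 and -11.7 points in the controls (difference -1.62 points, exact permutation p = 0.333, the smallest possible). Among sites of 5% to 10% mean level over the 4 libraries, the adult null minus control difference was -3.47 points at 181 sites of all 5 lists and -2.43 points at 5958 sites without a peak. Control 2 was above control 1 in every class, and at sites without a peak by more than the groups differed. Leaving out WGBS control 2 gave -1.76 points at the 393 sites and -0.408 at sites without a peak. With HNF6 control 3 set aside, 585 sites lay under all 4 remaining top lists, with 7.03% and 7.53% in the adult nulls and 8.91% and 11.1% in the controls (difference -2.75). With autosomal top lists the difference was -2.98 at 276 sites.

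**Figure D5:**
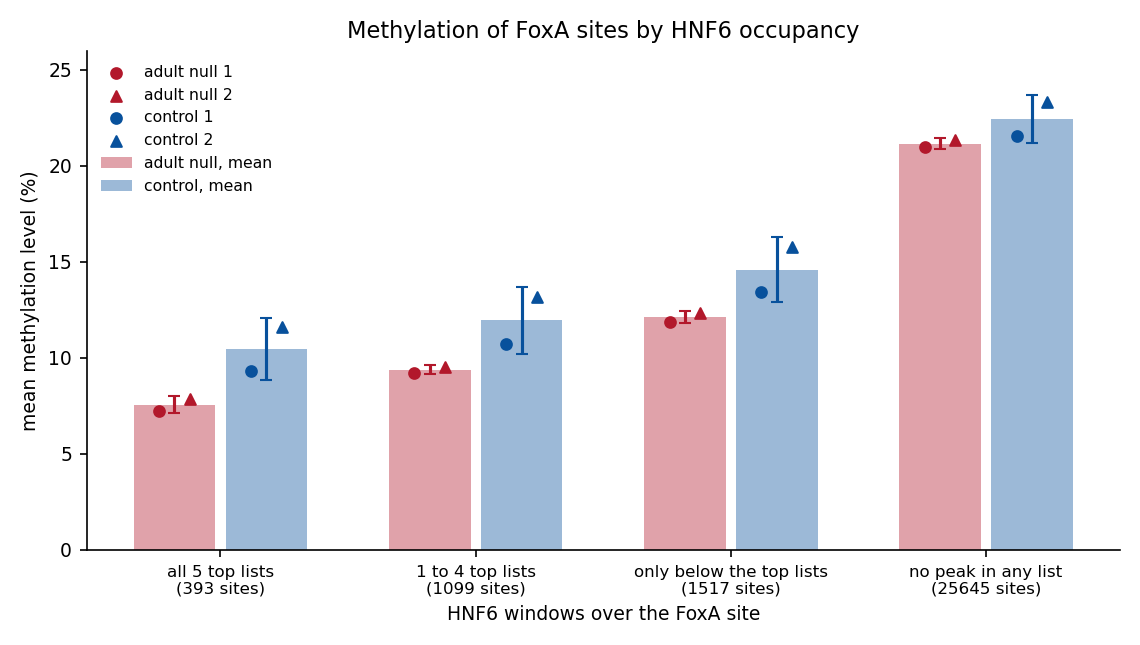
Mean methylation level in percent (vertical axis, from 0) of FoxA sites in 4 classes of HNF6 occupancy (horizontal axis, with the number of sites); bars are means of 2 libraries with SD, and symbols are single libraries, adult nulls left of controls. Sites of all 5 lists have 7.26% and 7.89% in the adult nulls and 9.33% and 11.6% in the controls, sites with no HNF6 peak have 21.0% and 21.4% in the adult nulls and 21.6% and 23.3% in the controls, and both adult nulls lie below both controls in each class.

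Rises of more than 20 points were about as rare at single sites under HNF6 as at FoxA sites without a peak. Of the 393 sites, 1 (0.254%) was more than 20 points higher in the adult nulls and none was more than 20 points lower. At the sites without a peak 61 (0.238%) were higher and 107 (0.417%) lower by as much. The 1 higher site of the 393 lay on chromosome 15, 82596356 to 82596755, with levels of 48.9% and 36.8% in the adult nulls and 14.3% and 29.0% in the controls. Next in that direction were chromosome 16, 93822953 to 93823352 (37.0% and 29.0% in the adult nulls, 14.8% and 25.8% in the controls) and chromosome 10, 36991785 to 36992184 (14.3% and 11.1% in the adult nulls, 0% and 0% in the controls). At all 3 the groups did not overlap.

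In the other direction stood chromosome 11, 100392311 to 100392710, with 16.7% and 24.7% in the adult nulls and 36.7% and 42.9% in the controls. At chromosome 17, 53595122 to 53595521, all 5 libraries held a top HNF6 window although the site was highly methylated. It had 75.6% and 84.0% in the adult nulls and was nearly fully methylated in the controls, at 100% and 97.2%. The last of the 3, on chromosome 18, had 2.70% and 3.70% in the adult nulls and 25.0% and 15.0% in the controls. These sites were picked for the size of their difference, and no test was made of them. The FoxA site beside the first-ranked HNF6 region had 2.24% and 9.82% in the adult nulls and 8.70% and 10.1% in the controls.

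HNF6 occupancy was highest at sites of low but not the lowest control methylation, in the lists of both genotypes. Sites were classed by control levels only, so adult null lists were not set against adult null levels. Sites with a mean control level of 5% to 10% lay under a top window in 5.38% and 5.70% of cases in the adult nulls, against 6.25%, 5.93% and 3.49% in the controls. At 0% to 5% the shares were 3.67% and 3.99% in the adult nulls and 4.34%, 4.34% and 2.12% in the controls. At 40% or more they were 0.579% and 0.728% in the adult nulls and 0.728%, 0.653% and 0.336% in the controls. The profile over control methylation thus had its peak in the same class in all 5 libraries. It did so with autosomal top lists as well, at 3.69% and 3.49% in the adult nulls and 3.98%, 3.73% and 3.49% in the controls.

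The authors also deposited a list of FoxA sites named as hypermethylated. In the WGBS table these sites had 59.6% and 60.1% methylation in the developmental nulls, against 26.6% and 29.8% in the controls. The top lists met 24 and 24 of the listed sites in the adult nulls (0.887% each) and 39, 37 and 21 in the controls (1.44%, 1.37% and 0.776%). Of all 33302 FoxA sites they met 3.25% and 3.47% in the adult nulls and 3.86%, 3.69% and 2.04% in the controls, so the share was lower at listed sites in every library. On autosomes with 965 windows the counts were 20 and 15 in the adult nulls and 14, 18 and 21 in the controls, so that the groups overlapped. Of 21 regions of controls 1 and 2 on the list, each adult null top list held 13, or 61.9% (Wilson 40.9 to 79.2). At other FoxA sites they held 79.3% and 82.0% of 588, and away from FoxA sites 77.2% and 79.8% of 667. Control 3 held 52.4% of the listed regions (32.4 to 71.7), 56.5% at other FoxA sites and 48.6% away from them. The interval on 21 regions overlapped that at other FoxA sites in both adult nulls (75.8 to 82.3 and 78.7 to 84.9). Levels over the listed sites measured in both tables, 2267 in number, were 30.0% and 29.9% in the adult nulls and 26.5% and 29.7% in the controls. The list was made from libraries that include these controls, so these levels are a description.

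Reduced representation bisulfite sequencing (RRBS), which samples CpG-rich parts of the genome, gave levels in tiles of 100 bp for 3 other adult experiments. In the first, mice that lost Foxa1 and Foxa2 in adulthood, and controls given a GFP virus, had partial hepatectomy, after which the remaining liver regrows; both groups were 12 weeks old. In the other experiments, mice lacking Foxa3 lost Foxa1 and Foxa2 through Cre and were taken 7 or 13 days later, at 9 and 12 weeks of age, with controls of the same ages that also lacked Foxa3 and received GFP. Few tiles lay in the 557 HNF6 regions of all 5 lists, 48 to 59 per experiment.

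At these tiles the level 7 days after Cre was 6.72%, 4.29% and 5.70% in the triple nulls, against 7.82%, 9.21% and 8.57% in their controls. All 3 triple nulls lay below all 3 controls (difference of means -2.97 points; two-sided exact permutation p = 0.1, the smallest possible). At 13 days it was 4.34% and 4.61% in the triple nulls, against 9.07% and 5.83% in the controls (difference -2.97; exact permutation p = 0.333, the smallest possible). After hepatectomy it was 8.98%, 10.6% and 10.4% in the nulls, against 12.8% and 8.47% in the controls, so the groups overlapped (difference -0.667; exact permutation p = 0.8), and without control 1 the difference was 1.52. Over the 98 to 115 tiles in HNF6 regions of both adult nulls and controls 1 and 2, without HNF6 control 3, the differences were -2.41 at day 7, -2.58 at day 13 and 0.486 after hepatectomy. Under other HNF6 peaks the differences were -2.07 at day 7 (780 tiles), -1.98 at day 13 (841 tiles) and 0.348 after hepatectomy (831 tiles). At day 7 those tiles had 8.26%, 7.73% and 8.88% in the triple nulls, against 10.2%, 10.3% and 10.6% in the controls. The lower levels at days 7 and 13 were thus not limited to the tiles read first. Tiles with no HNF6 peak had 59.1% ± 0.285 in the day 7 triple nulls and 58.9% ± 0.371 in their controls (SD, n = 3 each), where the groups overlapped. These tiles were far more methylated than those under HNF6. Tiles of low level without an HNF6 peak were not read apart, so whether low tiles in general differed was not tested.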

How the data were processed

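Members and lists were chosen with earlier results of these data known. Each list came from 1 HNF6 library and 1 input library, per the file headers; the sources used here name no ChIP aligner. Duplicate reads had been removed before calling in the adult nulls, per the file headers. Coordinates are mm9, per the submitters' processing notes. The authors deposited MACS 1.4.3 lists with a tag count per peak, a score computed from its p-value, its fold enrichment and, in percent, its false discovery rate. They deposited MACS 2.1.1 lists with the pileup signal at the summit, the fold enrichment and the −log10 of p and q. Mitochondrial peaks (3 of control 2) were left out, the others ranked by p within a list, and windows called shared at an overlap of 1 bp. A share of a pair is the mean of the shares in both directions. Group values of single libraries were tested by two-sided exact permutation over libraries.

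Methylation levels were deposited by the authors as fractions without coverage and multiplied by 100; Trim Galore 0.3.3 and BSMAP 2.74 were used, per the submitters' processing notes. In the adult null WGBS table, 1 column headed as a developmental null held the values of control 2 and was not used; control levels come from the other table, with which control 1 agreed at all 28654 common sites (tolerance 1e-06 of a fraction). RRBS tiles had values in every library of their comparison. Same-numbered samples did not deviate together (correlations -0.04 to 0.01), so no pairing was used.

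Regions named are the 10 of best mean control rank; the best of those in all 3 control top lists and no full adult null list, or the reverse; and the 3 sites with the largest methylation difference each way. Scripts, tested on simulated data, used Python 3.11.15, numpy 2.4.6, pandas 2.3.3, scipy 1.17.1 and matplotlib 3.10.9. HNF4A and H3K27ac libraries were not analysed here. Alternatives were top lists of other lengths, ranking by fold, peak centres, other windows, a stricter p, single libraries left out, the replicate block, and, added after the data were seen, autosomes, control 3 left out of the windows and regions, classes of mean level, and the authors' hypermethylated list.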

Additional observations from a re-analysis of the deposited data

How the results depend on the processing

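Control 3 and the sex chromosomes set the direction of the share of windows and of the share at FoxA sites. Adult null and control pairs minus control pairs gave 6.75 points with all libraries and -0.458 on autosomes, -5.30 on autosomes with controls 1 and 2, and -4.30 with longer top lists of controls 1 and 2. With single libraries left out it ran from -4.88 (without control 3) to 13.7 (without control 2). The FoxA share of adult nulls minus controls, 2.53 points with all libraries, was -1.81 on autosomes, -3.78 there with controls 1 and 2, and -2.59 with longer lists of controls 1 and 2, and ran from -4.60 (without control 3) to 6.47 (without control 1). With the replicate block, which takes same-numbered libraries as paired and so drops control 3, the 2 differences were -5.35 and -4.60; the numbers are not shown to mark shared animals. Top lists of 500 or 1000 peaks, ranking by fold, peak centres, windows of 100 or 400 bp, and p below 1e-10 kept the direction of both. Regions of 2 controls were found more often in the adult nulls than in the other control by 5.73 points on average, but by -0.814 on autosomes. Wider windows kept the direction. Full lists gave 12.2 points, but the full list of control 3 is its top list, so its share could not rise. With full lists, regions of controls 1 and 3 gave 96.2% and 96.5% against 98.5% in control 2. Regions of controls 2 and 3 gave 94.3% in each adult null against 99.1% in control 1. The counts of 5 adult null and 10 control regions became 0 and 0 with 1000 top peaks and 0 and 2 on autosomes, and ran from 6 to 57 and from 14 to 26 with single libraries left out. The WGBS difference of -2.90 kept its direction in all alternatives (-4.05 to -1.76 with single libraries left out). So did the day 7 (-3.54 to -2.33) and day 13 (-4.59 to -1.35) RRBS differences. With windows of 1000 bp these were -1.74 and -1.86. At day 7 the groups were then no longer fully apart (160 tiles, exact permutation p = 0.3, smallest possible 0.1). The hepatectomy difference ran from -2.85 to 1.52, and was 0.486 with HNF6 regions defined without control 3. The cause of these changes was not tested. A coverage minimum was not run, since the tables give no coverage.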
